A study of Mus musculus with 4 samples.

Results

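Notch signalling between neighbouring progenitor cells was examined through 10 genes, which are all in the deposited table of 13881 genes. They were taken by symbol and comprise the receptors Notch1, Notch2 and Notch3, the ligands Dll1, Dll3 and Jag1, the Fringe glycosyltransferases Lfng and Mfng, and the ubiquitin ligases of ligands Mib1 and Neurl1a. The tested cells, called shRybp, were neural progenitors infected with a lentivirus that expresses a short hairpin RNA against Rybp, a subunit of Polycomb repressive complex 1. The controls carry the label ctrl for the hairpin, and their vector is not named in the sources used here. Both groups came from embryonic day 14 forebrain of C57bl/6 mice and were expanded in proliferation medium with 2% B27, EGF and FGF-2, the mitogens at 20 ng/ml each, a medium meant to keep progenitors dividing. There are 2 libraries a group, and the labels name no separate animals, cultures or infections behind them. The p-values therefore cover the spread among these libraries, which may be technical.

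In this pathway a ligand of the Delta or Jagged family on a sending cell binds a Notch receptor on its neighbour, and the pull of ligand endocytosis opens the receptor to cleavage by ADAM proteases and then by gamma-secretase. The freed intracellular domain joins Rbpj in the nucleus and turns on repressors such as Hes5, which keep forebrain progenitors from becoming neurons. Fringe enzymes add sugar to the receptor and so change which ligand it answers to, and Mib1 or Neurl1a marks the ligand for endocytosis.

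Total counts were 14355308 and 16400480 in the shRybp libraries, against 17598873 and 15938646 in the controls. Rybp had 3.01 and 2.66 FPKM (fragment counts scaled by exon length and library total) in shRybp cells, against 4.43 and 3.95 FPKM in controls, so the targeted transcript was lower but present (edgeR adjusted p = 0.0017; log2 fold change -0.60). The progenitor markers Nes and Sox2 were abundant in all 4 libraries, with Nes at 244 and 236 FPKM in shRybp cells, against 149 and 145 FPKM in controls, and Sox2 at 98.3 and 102 FPKM in shRybp cells, against 138 and 130 FPKM in controls. Of 9 radial glia markers tested 3 rose (Nes, Vim and Tnc) and 4 fell (Sox2, Fabp7, Slc1a3 and Hes5). That is 77.8% called, against 33.0% of all genes tested. The radial glia list summed to 2719 and 2633 FPKM in shRybp, against 3446 and 3183 FPKM in controls. Of markers of vessels and immune cells, 6 of 8 endothelial and 6 of 8 microglial genes are not in the table. The endothelial genes that are in it summed to 0.68 and 0.69 FPKM in shRybp, against 0.56 and 0.76 FPKM in controls, and the microglial genes to 0.97 and 0.63 FPKM in shRybp, against 0.17 and 0.95 FPKM in controls. The myelin gene Mog had 46 and 0 counts in the shRybp libraries, against 0 and 42 counts in controls. The libraries shRybp 1 and control 2 thus held Mog transcripts, and shRybp 2 and control 1 had 0 counts of it. The microglial gene Csf1r divided the libraries the same way, with 44 and 1 counts in shRybp, against 4 and 47 in controls. So did the myelin gene Mbp, with 267 and 61 counts in shRybp, against 156 and 310 in controls. P2ry12, also microglial, did not, with 16 and 26 counts in shRybp, against 6 and 18 in controls. Results without shRybp 1 and without control 2 were among the settings planned beforehand. The comparison of shRybp 2 and control 1 alone, which has no replicates, was added after seeing the data. Without shRybp 1 or without control 2, the calls of Dll1, Dll3, Jag1 and Neurl1a held.

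Of the 10 genes, 2 rose and 6 fell in shRybp cells and 2 did not pass the test, edgeR's quasi-likelihood test with Benjamini-Hochberg adjustment over 12062 genes at a threshold of adjusted p 0.05. Over all genes tested 33.0% passed, 16.3% as rises and 16.7% as falls, so calls were common in this comparison. Jag1 and Neurl1a rose and Dll1 and Dll3 fell by more than 1.5-fold, a size that 7.69% of all tested genes reached together with the threshold. The other 4 falls, of Notch2, Notch3, Lfng and Mib1, were smaller than 1.5-fold. The median log2 fold change of the 10 genes was -0.28, against 0.00 over all genes tested. For 8 of the 10 genes the shRybp and control ranges of FPKM were apart, with 6 lower and 2 higher in shRybp, against 67.5% of all genes tested, 29.0% lower and 38.5% higher. Between shRybp 2 and control 1 alone the log2 differences were -0.73 for Dll1, -1.36 for Dll3, 0.94 for Jag1 and 1.70 for Neurl1a. All 10 reached the mean of 1 FPKM set for testing. Neurl1a did so only through the shRybp libraries, and its call held with no filter on low values as well.

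**Figure D1:**
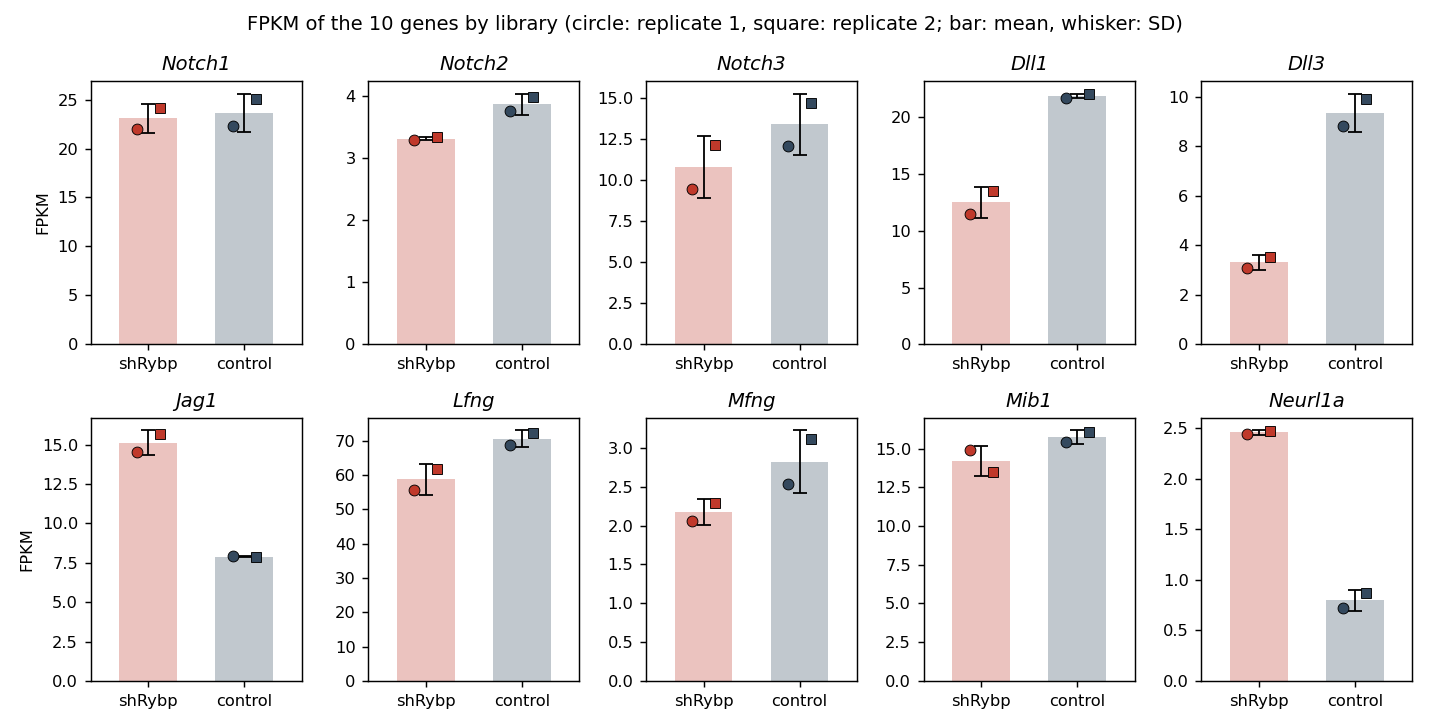
FPKM of each gene in the 2 shRybp and 2 control libraries, with bars at the mean and whiskers of 1 SD on linear axes that start at 0. Dll1 and Dll3 were lower in both shRybp libraries and Jag1 and Neurl1a were higher, while the points of Notch1 and Notch3 overlap between groups.

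The 3 ligands all changed by more than 1.5-fold, and not in 1 direction. Dll1, the Delta ligand that cells entering differentiation present to their neighbours, had 11.5 and 13.5 FPKM in shRybp cells, against 21.8 and 22.0 FPKM in controls. Both shRybp libraries lay below both controls, and the counts behind them were 699 and 935 in shRybp, against 1618 and 1485 in controls. The fitted change was -0.84 on the log2 scale (edgeR adjusted p = 1.1e-05; SE 0.08, 95% interval -1.02 to -0.66), and 3.16% of tested genes had a larger absolute change. Dll1 (ENSMUSG00000014773, mm10 chromosome 17, 15367354 to 15376872, minus strand) shares 867 exonic bases with the non-coding gene A930024N18Rik on the opposite strand, which has no row of its own in the table, and without strand information their reads cannot be told apart.

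Dll3, a divergent ligand that mostly stays inside the cell and dampens Notch activation there, had 3.10 and 3.52 FPKM in shRybp cells, against 8.82 and 9.91 FPKM in controls. The groups did not overlap, and its level in shRybp was 2.89-fold lower (edgeR adjusted p = 1.5e-06; log2 fold change -1.53, SE 0.11). Counted from the most negative fold change, Dll3 (ENSMUSG00000003436, chromosome 7, 28293553 to 28302238, minus strand) was number 25 of the genes tested. The ratio of Dll1 to Dll3 FPKM within a library was 3.72 and 3.83 in shRybp, against 2.47 and 2.22 in controls, so Dll3 lost the larger share in both libraries.

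Jag1, the Jagged ligand, moved the other way. It had 14.6 and 15.7 FPKM in shRybp cells, against 7.90 and 7.89 FPKM in controls, from 1221 and 1502 counts against 812 and 734. The groups were far apart beside a spread of 0.79 FPKM (SD, n = 2) in shRybp and 0.01 FPKM (SD, n = 2) in controls, and the change was 1.87-fold (edgeR adjusted p = 3.1e-06; log2 fold change 0.90, SE 0.08). Jag1 (ENSMUSG00000027276, chromosome 2, 137081456 to 137116644, minus strand) was 1 of 109 tested genes with a fold change at least that high.

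The sum of Dll1 and Dll3 over Jag1 within each library, which no scaling between libraries can alter, was 1.00 and 1.08 in shRybp cells, against 3.87 and 4.05 in controls. On the log2 scale the ratio was 0.06 ± 0.08 in shRybp and 1.98 ± 0.05 in controls (SD, n = 2 each), a difference of -1.92 (exact two-sided permutation test over libraries, p = 0.333, the smallest that 2 against 2 libraries allow). It was -1.88 from counts in place of FPKM and -1.83 between shRybp 2 and control 1 alone. In shares of the 3 ligands' FPKM, Jag1 took 49.9% and 48.0% in shRybp, against 20.5% and 19.8% in controls, and Dll1 took 39.5% and 41.2% in shRybp, against 56.5% and 55.3% in controls. The most abundant ligand transcript per length was therefore Jag1 in both shRybp libraries and Dll1 in both controls. The summed ligand level was 29.2 and 32.7 FPKM in shRybp, against 38.5 and 39.8 FPKM in controls. Jag2, the other Jagged gene of the table, stayed near 0.17 FPKM in shRybp and 0.18 FPKM in controls, too low to test. Dll4 has no row in the table used here.

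**Figure D2:**
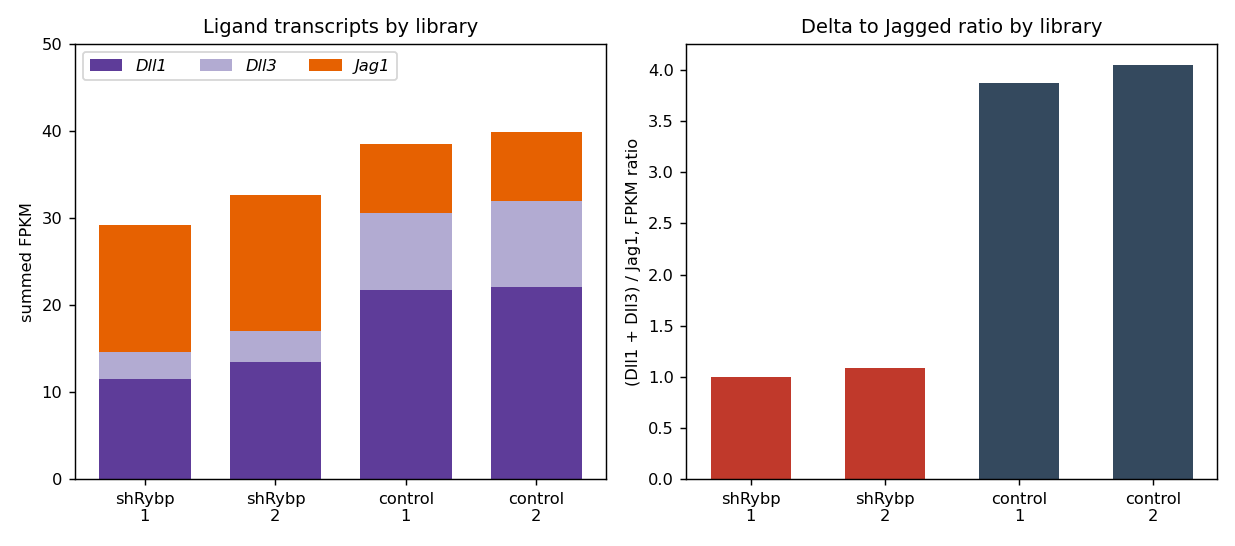
Left, FPKM of Dll1, Dll3 and Jag1 stacked for each library; right, the ratio of Dll1 plus Dll3 to Jag1 FPKM in the same libraries, on a linear axis from 0. The ratio was near 1.0 in both shRybp libraries, at 1.00 and 1.08, and 3.87 and 4.05 in the controls.

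Promoter windows from RefSeq (GRCm38.p6, the assembly of mm10) are shown for the 4 genes that changed by more than 1.5-fold, 250 bases before to 50 after the annotated start. They allow the regulatory letters near each start to be compared between the ligand genes that fell and the genes that rose. Capitals mark CAGCTG, an E-box, the kind of motif that basic helix-loop-helix factors bind. For Dll1 the start nearer to the gene's end in the table is shown.
Dll1, chr17:15376883-15377182, minus strand: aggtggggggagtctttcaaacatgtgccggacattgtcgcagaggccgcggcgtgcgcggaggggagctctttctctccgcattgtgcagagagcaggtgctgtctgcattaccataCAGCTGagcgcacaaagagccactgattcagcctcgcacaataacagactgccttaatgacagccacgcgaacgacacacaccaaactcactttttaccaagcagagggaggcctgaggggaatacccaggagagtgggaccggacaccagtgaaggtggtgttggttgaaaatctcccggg
Dll3, chr7:28301736-28302035, minus strand: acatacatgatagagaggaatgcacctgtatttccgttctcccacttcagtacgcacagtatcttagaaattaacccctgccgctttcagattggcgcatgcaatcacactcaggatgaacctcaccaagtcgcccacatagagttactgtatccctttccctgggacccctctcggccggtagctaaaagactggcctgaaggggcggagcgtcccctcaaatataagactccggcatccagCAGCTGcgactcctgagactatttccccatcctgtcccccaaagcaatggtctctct
Jag1, chr2:137116471-137116770, minus strand: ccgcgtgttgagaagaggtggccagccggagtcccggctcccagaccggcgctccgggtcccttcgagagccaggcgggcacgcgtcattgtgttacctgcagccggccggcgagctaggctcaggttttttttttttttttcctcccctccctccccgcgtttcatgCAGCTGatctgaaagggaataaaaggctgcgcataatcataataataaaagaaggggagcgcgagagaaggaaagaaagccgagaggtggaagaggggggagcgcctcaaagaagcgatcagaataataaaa
Neurl1a, chr19:47178570-47178869, plus strand: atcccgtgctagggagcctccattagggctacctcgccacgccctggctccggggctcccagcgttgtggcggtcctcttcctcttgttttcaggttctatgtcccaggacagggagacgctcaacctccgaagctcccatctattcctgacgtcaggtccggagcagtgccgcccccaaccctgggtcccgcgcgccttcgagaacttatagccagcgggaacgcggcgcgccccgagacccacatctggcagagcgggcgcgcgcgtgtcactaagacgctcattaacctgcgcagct

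CAGCTG, searched on both strands and identical on each, stood 1 time in the windows of Dll1, Dll3 and Jag1, beginning 132, 7 and 82 bases before the start in that order, and not in that of Neurl1a. It stood 2 times in the window of Lfng, which fell by less, and 0 times in the window of a second annotated Dll1 start. It occurs in 16.3% of the 32851 RefSeq windows of this length. The looser E-box CANNTG, which includes CAGCTG, occurs in 72.3% of windows and stood 3, 2, 1 and 1 times in the 4 windows in the same order. The core letters TGGGAA bound by Rbpj, searched on both strands, were in none of the 4 windows and occur in 25.6% of all windows. Among the 8 of 10 genes with a window, TGGGAA was found only for Lfng, which had 2 matches, 135 and 108 bases before its start. The annotated start lay 12841 bases from the gene's end in the table for Notch1 and 453 bases for Dll3. Their windows do not reach that end, so they leave the letters there unread. The E-box CACGTG, also a form of CANNTG, stood in the Lfng window and occurs in 7.2% of all windows. In the windows shown, CAGCTG was thus shared by ligand genes that fell and the ligand gene that rose, and a match is a description of these letters only.

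Of 6 proneural and early differentiation genes tested, 3 rose (Insm1, Gadd45g and Sox11) and 2 fell (Sox4 and Btg2). Insm1 reached the mean of 1 FPKM only through the shRybp libraries, at 1.66 and 1.73 FPKM, against 0.66 and 0.99 FPKM in controls. From the same list 5 others, among them Neurog2 and Eomes, are not in the table. The list summed to 161 and 168 FPKM in shRybp, against 201 and 202 FPKM in controls, and its median log2 fold change was 0.06. Sox4 had 53.3 and 56.8 FPKM in shRybp, against 92.1 and 91.1 FPKM in controls. Of 10 neuronal genes tested 2 rose (Gap43 and Syt1) and 5 fell (Scg3, Mapt, Elavl3, Dcx and Snap25). The median log2 fold change of that list was -0.27. Mapt had 8.52 and 9.04 FPKM in shRybp, against 16.8 and 18.6 FPKM in controls. The shRybp means of Dcx and Snap25 were 0.76 and 0.98 FPKM, so both reached the mean of 1 FPKM only through the controls. The neuronal list summed to 378 and 361 FPKM in shRybp, against 304 and 277 FPKM in controls. Most of that sum came from Gap43, a growth cone gene, at 259 and 250 FPKM in shRybp, against 158 and 135 FPKM in controls. Markers of glial lineages moved in the same libraries. Of 9 oligodendrocyte lineage genes tested 4 fell and 0 rose, with Pdgfra, the receptor of their precursors, at 6.38 and 5.91 FPKM in shRybp, against 13.7 and 15.1 FPKM in controls. Olig2 in that list had 267 and 286 FPKM in shRybp, against 294 and 287 FPKM in controls, and did not pass (edgeR adjusted p = 0.23). The list summed to 763 and 796 FPKM in shRybp, against 838 and 869 FPKM in controls. All 10 astrocyte markers tested fell, and their summed level was 279 and 301 FPKM in shRybp, against 725 and 751 FPKM in controls. The share called was 83.3% of the proneural, 70% of the neuronal, 44.4% of the oligodendrocyte and 100% of the astrocyte genes tested. Over all genes tested the share was 33.0%, with 16.3% as rises and 16.7% as falls. In bulk RNA, fewer cells of a type and less transcript per cell cannot be told apart, and the part of these markers in the ligand changes was not tested.

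The receptors changed far less than the ligands. Notch1, which had the highest FPKM of the 3 in every library, had 22.0 and 24.1 FPKM in shRybp cells, against 22.3 and 25.0 FPKM in controls. The groups overlapped, and the 95% interval of the log2 fold change, -0.22 to 0.08, held 0 (edgeR adjusted p = 0.49). With 4511 to 5692 counts a library, Notch1 was the deepest of the 10 genes. Its last exons overlap 2 non-coding genes of the opposite strand, 0610009E02Rik and Gm13568, which have no rows in the table.

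Notch3, a receptor of radial glia that is also known from vascular mural cells, had 9.46 and 12.10 FPKM in shRybp cells, against 12.05 and 14.7 FPKM in controls. It passed the test (edgeR adjusted p = 0.029; log2 fold change -0.34, SE 0.11), although the higher shRybp library lay just above the lower control. The call ended under 7 of 12 other settings, among them leaving out shRybp 1 (edgeR adjusted p = 0.22; log2 fold change -0.18) or control 2 (edgeR adjusted p = 0.13; log2 fold change -0.21), and the value between shRybp 2 and control 1 alone was -0.04. Of 8 markers of mural cells 4 are in the table, and they summed to 13.7 and 15.7 FPKM in shRybp, against 13.4 and 17.1 FPKM in controls, mostly from Cspg4, which oligodendrocyte precursors share. Of the tested ones, Cspg4 did not pass (edgeR adjusted p = 0.16) and Acta2 rose (edgeR adjusted p = 0.019; log2 fold change 0.69). Acta2 had only 82 and 81 counts in shRybp, against 59 and 49 in controls. Its call ended under 3 of 11 other settings, namely DESeq2 and leaving out shRybp 1 or control 2. The mural markers Pdgfrb and Myh11 are not in the table and Rgs5 was at 0.31 and 0.21 FPKM in shRybp, against 0.17 and 0.29 FPKM in controls.

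Notch2 had 3.29 and 3.33 FPKM in shRybp cells, against 3.75 and 3.98 FPKM in controls, with no overlap (edgeR adjusted p = 0.033; log2 fold change -0.26, SE 0.08). Its call ended under 8 of 12 other settings, and was at adjusted p = 0.14 without control 2. Notch2 shares 541 exonic bases with the gene model Gm42820 on its own strand, and Notch3 shares 488 with the non-coding gene Gm17276 on the opposite strand. Neither of the overlapping genes has a row in the table. Summed over the 3 receptors, FPKM was 34.8 and 39.6 in shRybp, against 38.1 and 43.7 in controls, ranges that overlap. Notch1 made up 63.4% and 61.0% of that sum in shRybp, against 58.5% and 57.3% in controls, and Notch3 made up 27.2% and 30.6% in shRybp, against 31.7% and 33.6% in controls. The order Notch1, Notch3, Notch2 was the same in each of the 4 libraries. The ratio of summed receptor to summed ligand FPKM was 1.19 and 1.21 in shRybp, against 0.99 and 1.10 in controls.

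**Figure D3:**
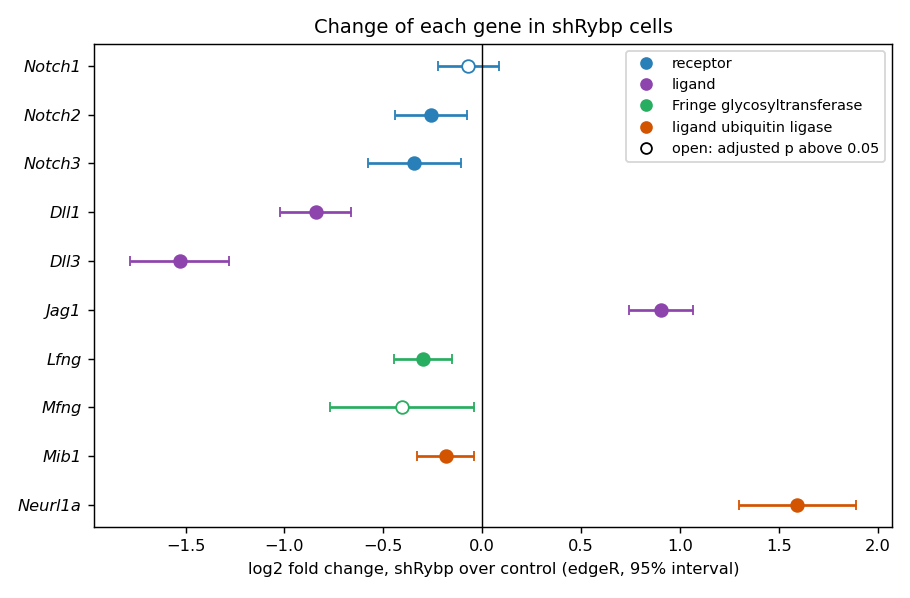
Log2 fold change of each gene in shRybp over control from the edgeR fit, with 95% intervals and colours by role; open points did not pass adjusted p 0.05. Dll3 at -1.53 and Neurl1a at 1.59 were the furthest from 0, and the 3 receptors lay between -0.34 and -0.07.

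Among the Fringe enzymes, Lfng, the Fringe with a known oscillating role in the segmenting embryo, was the most abundant of the 10 transcripts per length. It had 55.5 and 61.9 FPKM in shRybp cells, against 68.8 and 72.3 FPKM in controls, so both shRybp libraries lay below both controls. The fall was small beside that of the Delta ligands (edgeR adjusted p = 0.0046; log2 fold change -0.30, SE 0.07, 95% interval -0.45 to -0.15), and it was past the threshold in 10 of 12 other settings, the exceptions being limma with pseudocounts of 1 (adjusted p = 0.060) and 0.1 (adjusted p = 0.086). Mfng, a second Fringe, had 2.06 and 2.29 FPKM in shRybp, against 2.54 and 3.11 FPKM in controls, from 84 and 107 counts against 127 and 141. The groups did not overlap, but the difference did not pass the test (edgeR adjusted p = 0.082; log2 fold change -0.41, 95% interval -0.77 to -0.04). The log2 ratio of Lfng to Mfng FPKM was 4.75 in both shRybp libraries, against 4.76 and 4.54 in controls, so the balance between them did not separate the groups. Rfng, the remaining Fringe and not among the 10, averaged 11.4 FPKM in shRybp, against 8.79 FPKM in controls, and rose (edgeR adjusted p = 0.024; log2 fold change 0.35). Its call ended under 6 of 12 other settings, with adjusted p up to 0.23.

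The ubiquitin ligases differed in size and direction. Neurl1a, the mouse homologue of the fly gene neuralized, had 2.44 and 2.47 FPKM in shRybp cells, against 0.72 and 0.87 FPKM in controls, from 256 and 296 counts against 93 and 101. The groups were far apart and the change was 3.02-fold (edgeR adjusted p = 4.0e-06; log2 fold change 1.59, SE 0.14, 95% interval 1.30 to 1.89). By fold change it was number 10 of the 12062 genes tested, counted from the highest. On the log2(FPKM + 1) scale of limma, which understates changes of low genes, it was 0.95, still past the threshold. Neurl1a (ENSMUSG00000006435, chromosome 19, 47178820 to 47259441, plus strand) shares 690 exonic bases with the gene model AC132288.2 on its own strand, which has 61 counts over the 4 libraries in its own row.

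Mib1, the ligase that most Notch ligand activity in mice depends on, had 14.9 and 13.5 FPKM in shRybp cells, against 15.4 and 16.1 FPKM in controls. Its fall of -0.18 on the log2 scale (edgeR adjusted p = 0.049; SE 0.07) lay at the threshold, and it ended under 9 of 12 other settings, including no filter on low values (adjusted p = 0.055). The ratio of Mib1 to Neurl1a FPKM was 6.09 and 5.47 in shRybp, against 21.3 and 18.5 in controls, and Mib1 was still the more abundant per length in every library. Of their relatives, Mib2 fell (edgeR adjusted p = 0.027; log2 fold change -0.41; the call ended under 6 of 12 other settings) and Neurl1b had a log2 fold change of 0.23 and did not pass (edgeR adjusted p = 0.071).

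Placed in order of FPKM, the 10 transcripts ran in controls from Lfng through Notch1, Dll1, Mib1, Notch3, Dll3, Jag1, Notch2 and Mfng to Neurl1a. In shRybp the order was Lfng, Notch1, Jag1, Mib1, Dll1, Notch3, then Notch2 and Dll3 at 3.31 FPKM each, Neurl1a and Mfng. Neighbours that differed by less than the sum of their SDs were Notch1 and Dll1 in controls, at 23.7 ± 1.96 and 21.9 ± 0.20 FPKM (SD, n = 2 each). In shRybp the same held from each to the next of Jag1, Mib1, Dll1 and Notch3, at 15.1 ± 0.79, 14.2 ± 0.97, 12.5 ± 1.39 and 10.8 ± 1.87 FPKM (SD, n = 2 each), and of Notch2 and Dll3. Dll3 averaged 9.36 FPKM in controls, above the 7.90 FPKM of Jag1 in the same cells.

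**Figure D4:**
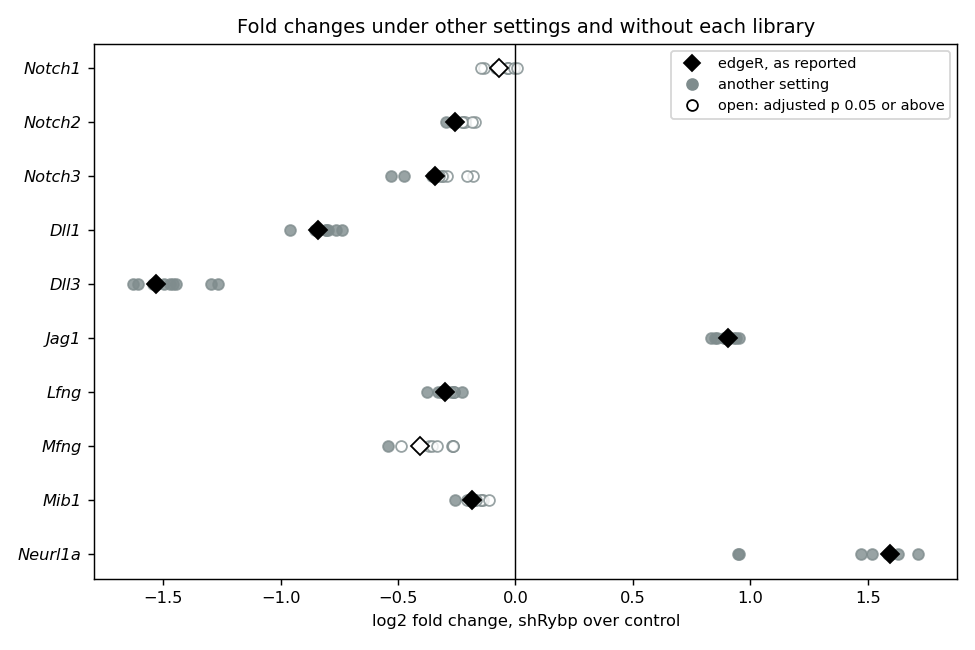
Log2 fold change of each gene as reported (diamonds) and under 11 or 12 other settings, which change the scaling, filter, test or pseudocount, add a replicate block or leave out a library; open symbols are at adjusted p 0.05 or above. Dll1, Dll3, Jag1 and Neurl1a stayed past the threshold in all of them. Notch2, Notch3, Lfng and Mib1 lost their calls in some of them, and Mfng passed in some.

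The rest of the pathway was read from 59 further genes, of which 55 are in the table and 51 were tested. Of these 11 rose and 10 fell, 41.2% against 33.0% of all genes, with a median log2 fold change of -0.01 against 0.00 over all genes, and none that passed the test changed by 1.5-fold. Among the proteases that cut the receptor, Adam10, the first to cut it, rose (0.27, log2 fold change; edgeR adjusted p = 0.0039) and its relative Adam17 fell (-0.19; adjusted p = 0.037). Of the gamma-secretase subunits, Ncstn rose (0.21) and Aph1b fell (-0.50). Among the enzymes that put sugars on the receptor, 3 of 7 rose and 0 fell, 42.9% called against 33.0% of all genes. Those that rose were Rfng, the glucosyltransferase gene Poglut3 (0.41) and the xylosyltransferase gene Xxylt1 (0.25). Pofut1, which adds the fucose that Fringe extends, did not pass (edgeR adjusted p = 0.53; log2 fold change -0.08). Dner, a non-canonical ligand known from neurons, averaged 36.1 FPKM in shRybp, against 45.0 FPKM in controls, and fell (edgeR adjusted p = 0.0011; log2 fold change -0.35).

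Of 15 ubiquitin ligase and endocytosis genes, 2 rose and 3 fell, 33.3% called against 33.0% of all genes tested. Those that rose were Fbxw7 (0.28), which marks the cleaved receptor for degradation, and Epn1 (0.24), an epsin of ligand endocytosis, and beside Mib2 the Deltex genes Dtx1 (-0.39) and Dtx4 (-0.29) fell. Numb and Numbl, which antagonise Notch in dividing progenitors, did not pass, with log2 fold changes of -0.01 and -0.05. In the nuclear complex Kat2a, a histone acetyltransferase, rose (0.40), as did Rbpj (0.20), and the coactivator gene Maml2 fell (-0.34). Rbpj lost its call under 8 of 12 other settings. Of 13 co-repressor genes, Hdac1 (0.25) and Ctbp2 (0.26) rose and Tle1 (-0.47), Kdm5a (-0.37) and Spen (-0.24) fell. That is 38.5% called, near the share over all genes tested. The calls of Adam10, Aph1b, Dner, Kat2a and Tle1 held under all 12 other settings, and the other 16 of these 21 calls were each lost in 1 to 8 of them.

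Transcripts on which Notch activity is commonly read are given beside these components. Hes5 fell (edgeR adjusted p = 2.6e-07), at 9.03 and 11.4 FPKM in shRybp, against 34.0 and 35.1 FPKM in controls. Nrarp had 12.8 and 13.4 FPKM in shRybp, against 25.4 and 26.9 FPKM in controls, and Hey1 had 7.84 and 8.24 FPKM in shRybp, against 14.5 and 13.9 FPKM in controls; both fell (edgeR adjusted p = 2.5e-06 for Nrarp and 1.6e-05 for Hey1). Hes1 averaged 11.2 ± 0.36 FPKM in shRybp and 9.93 ± 0.44 FPKM in controls (SD, n = 2 each), and did not pass (edgeR adjusted p = 0.27).

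**Figure D5:**
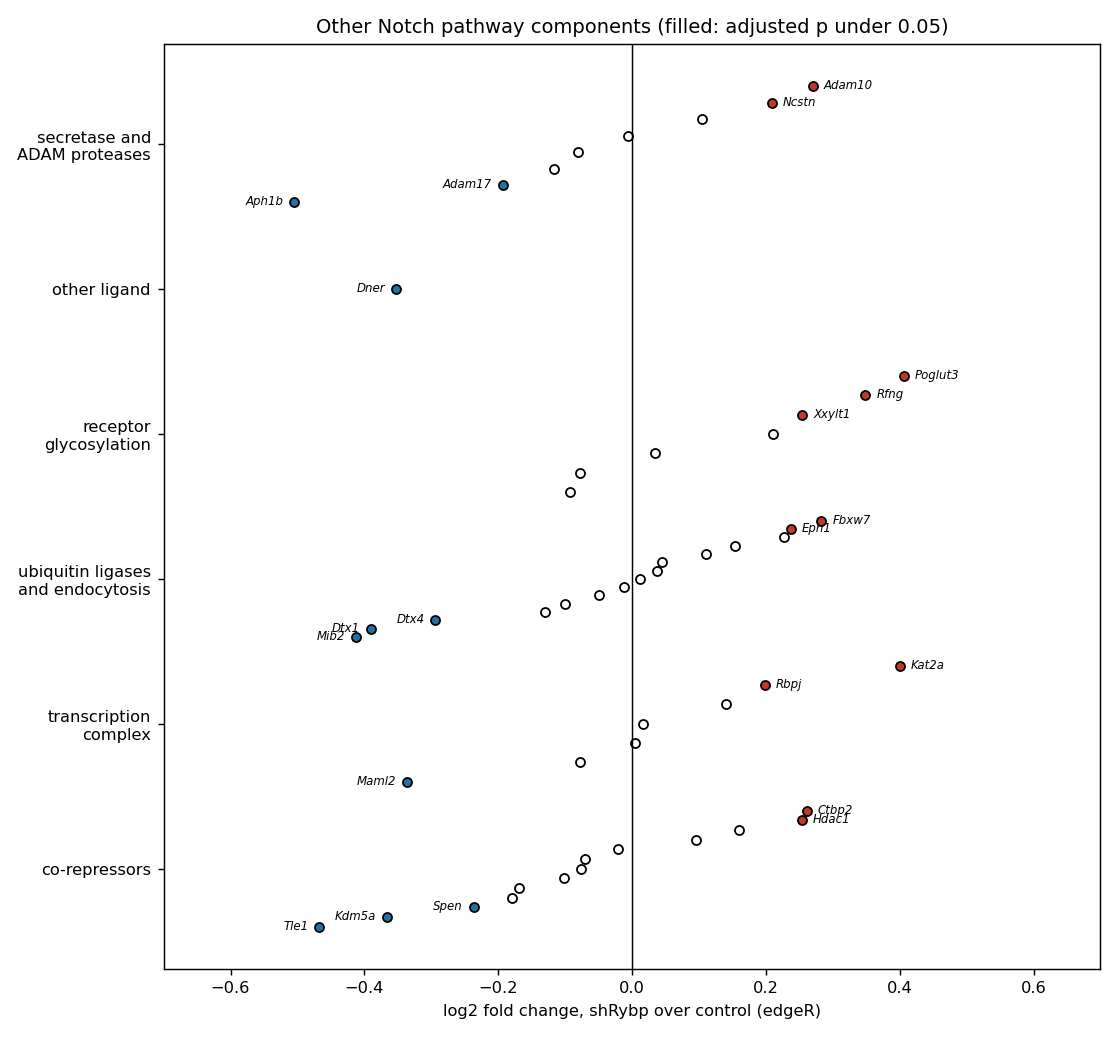
Log2 fold change of the 51 tested components outside the 10 genes, grouped by role, with shRybp over control on the horizontal axis; filled and named points passed edgeR adjusted p 0.05. All lie between -0.50 and 0.41, with 11 rises and 10 falls.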

How the data were processed

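The authors deposited a table with raw read counts per gene and FPKM values side by side, per the file headers, and the submitters' processing notes name build mm10. Which aligner, counter and strand setting were used is not stated there, nor in other sources used here. The deposited FPKM values are these counts divided by gene length and library total: for 13617 of 13747 genes the length was within 0.1% of the exon union of GENCODE release M21, from which chromosomes, strands and overlaps were taken. The table holds genes with at least 40 counts in all. Symbols that a spreadsheet had turned into dates (21) were restored.

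Counts were compared with edgeR 4.0.16 in R 4.3.3 (TMM, quasi-likelihood test, two-sided, Benjamini-Hochberg) over 12062 genes with a mean of at least 1 FPKM. Standard errors are the absolute log2 fold change over the square root of F. Limma 3.58.1 and DESeq2 1.42.0 were alternatives. Replicates differed by more than counting noise (chi-square per degree of freedom 4.36 in shRybp and 5.18 in controls). The members and the gene lists were chosen with earlier results of these data known. Named genes are the members, every other pathway component past the test, and readouts and markers that a result turns on; a few are not reported here.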

Additional observations from a re-analysis of the deposited data

How the results depend on the processing

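The calls of Dll1, Dll3, Jag1 and Neurl1a and the direction of every called gene of the 10 held under all settings run, except that Neurl1a is not tested at a mean of at least 3 FPKM, where the number of the 10 that rose was 1 in place of 2. The number that fell, 6, was 3 with DESeq2, 3 with library totals without TMM, 2 in limma on log2(FPKM + 1), 2 with a pseudocount of 0.1 and 3 after quantile normalization, and 3 to 6 when a library was left out (3 without control 2). For the other pathway components the 11 rises became 6 with DESeq2, 7 in limma on log2(FPKM + 1), 5 with a pseudocount of 0.1, 4 after quantile normalization and 4 to 9 without a library (4 without shRybp 2, 5 without control 1). Their 10 falls became 5, 3 and 6 in the same limma settings and 6 to 9 without a library (6 without shRybp 1). Over all genes tested, the share called was 23.4% with DESeq2 and 33.8% with library totals without TMM, against 33.0% in the main fit. It was 26.4%, 22.1% and 25.7% in the limma settings in the same order. Of all calls, 57.9% were rises without TMM, against 49.5% in the main fit. The cause of these shifts was not tested. For the cell type markers the counts of 9 rises and 26 falls stayed within 1.5-fold, at 6 to 8 and 24 to 28 without a library. The difference of the Delta to Jagged log2 ratio ranged over -1.98 to -1.87 without a library and was -1.83 in the comparison of shRybp 2 with control 1, chosen after seeing the data. It was -1.75 with Dll1 alone against Jag1 and -1.80 with 1 FPKM added to each sum. Same-numbered libraries share only a number: their deviations correlated at 0.103 across genes. With the replicate block 7 of the 10 genes fell and 2 rose, Mfng joining them (edgeR adjusted p = 0.038), 44.2% of all genes were called, and the ratio differed by -1.95 and -1.90 within numbers 1 and 2. Mfng also passed without control 1 (adjusted p = 0.040). Depth was lowest for Mfng and Neurl1a, with 84 to 141 and 93 to 296 counts a library.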
